A study of Rattus norvegicus with 10 samples.

Results

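The 9 genes described here form the core of MHC class I antigen presentation, and they were followed across the 4 groups of rat splenic M2 macrophages. They were chosen by name, as a fixed list: B2m, Tap1, Tap2, Tapbp, Tapbpl, Erap1, Nlrc5, Calr and Pdia3. Of these 9 genes, 8 are among the 9003 genes of the expression table, and Nlrc5 was not analysed here. RNA was sequenced from macrophages of WKY/NCrj rats in 10 libraries. The rats were female and 7 to 12 weeks old. Control macrophages (n = 2) came from rats in a physiological state. GN macrophages (n = 2) came from rats with glomerulonephritis, induced with TF78, a monoclonal antibody against the glomerular basement membrane, and not given adipose-derived stem cells (ASCs). EV+ (n = 3) and EV- (n = 3) macrophages came from rats with the same nephritis that also received human ASCs whose membranes had been stained with the dye DiD. DiD-positive macrophages, labelled as having received extracellular vesicles (EVs) of the ASCs, are the EV+ group, and DiD-negative macrophages are the EV- group. The dye marks ASC membrane on a cell and does not itself show how the membrane came there. Both of these groups therefore carried the nephritis and the ASC treatment. Cells were enriched with beads for CD11b/c and then sorted by flow cytometry. The libraries are biological replicates, but the labels do not say whether EV+ and EV- libraries of one number came from the same animal.

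Class I molecules show peptides from inside the cell to CD8+ T cells. Peptides cut by the proteasome are carried into the endoplasmic reticulum (ER) by the transporter TAP, made of Tap1 and Tap2, and are trimmed there by Erap1. The heavy chain folds with the light chain, beta-2-microglobulin (B2m), and is held by the chaperones calreticulin (Calr) and ERp57 (Pdia3) beside tapasin (Tapbp), which favours the loading of peptides that bind well. Tapbpl, a relative of tapasin, edits peptides outside this complex, and Nlrc5 is a transactivator of the class I genes. Several of these genes are classical targets of interferons, whereas Calr is known as a gene of the ER stress response.

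RefSeq promoter sequences on the rat build GRCr8, from 250 bases before to 50 bases after the start of the gene, were matched by symbol for 6 of the 8 measured members. They are shown so that the expression values can be set beside the regulatory letters of each member. The interferon-stimulated response element was searched on both strands as GAAANNGAAA, in which N is any base, and lies in 3.92% of all 33469 promoters. It was found in the promoters of B2m, Tap1, Tap2 and Tapbp. In the windows that follow, each of 30 bases, 5′ to 3′ on the strand of the gene, the matched letters are in capitals.
B2m: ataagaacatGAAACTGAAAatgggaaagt
Tap1: cggtggctgcTTTCGGTTTCttcttcctct
Tap2: gcagcgaagtGAAAGCGAAAgcccgggacc
Tapbp: gcctttgaggGAAAATGAAAgtgaaaggaa
The windows lie at chr3:129549170-129549199 on the + strand for B2m and, all on the - strand of chromosome 20, at chr20:4668645-4668674 for Tap1, chr20:4652318-4652347 for Tap2 and chr20:4967884-4967913 for Tapbp. The Tap1 match reads on the opposite strand of the gene. The matches begin 150 bases before the start in B2m, 121 in Tap1, 41 in Tap2 and 26 in Tapbp, where another, overlapping match begins 20 bases before the start and runs on into the letters after the capitals.

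Calr does not hold these letters and instead has the ER stress response element, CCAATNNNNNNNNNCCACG searched on both strands, which lies in 0.0657% of all promoters. Its window is at chr19:40213130-40213159 on the + strand, the match reads on the opposite strand, and it begins 232 bases before the start.
Calr: caacgCGTGGTCGACCCTGATTGGcccagg
Tapbpl holds neither motif in its promoter window. The same ER stress letters were found in 4 of the 12 promoters of other ER folding genes, namely Canx, Ero1b, Hsp90b1 and Hspa5, and the interferon letters in Psmb8, Psmb10 and Psme2 of 7 promoters of the immunoproteasome and its activators and in RT1-N3 and RT1-S3 of 19 heavy chain promoters. The interferon letters also lie in promoters of the other lists, namely those of P4hb (ER folding), Tpp2 (a trimming peptidase), Rfx5 (a promoter factor), Cybb (cross-presentation) and Fcgrt (a partner of B2m). A match is a description of the letters and not a measured binding site.

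The cells carried RNA of macrophage markers, though not all 8 measured markers were high. Cd68 ranged from 1163 to 1466, Csf1r from 5800 to 8155, Adgre1 from 1025 to 1491 and Itgam from 388 to 641 CPM. CPM are reads scaled to the size of the library, with a TMM factor that balances the composition of the RNA. C1qa, another macrophage marker, was low, at 1.75 to 8.59 CPM. The M2 markers Mrc1, Cd163 and Msr1 were at most 2.14 CPM, so the label M2 rests on the sort and not on these transcripts. Libraries held 19270515 to 26617093 reads, so that 3 reads were worth 0.113 to 0.153 CPM. The summed level of all 11 measured NK and T cell markers was 216 to 225 CPM in control, 285 to 290.3 in GN, 270.4 to 345 in EV+ and 343 to 877 in EV- libraries. Cd8a alone gave 199 to 333 CPM of it, with means of 199.8 in control, 266 in GN, 299 in EV+ and 302 in EV- libraries. The other 10 markers together ran from 17.5 to 24.2 CPM in control, 16.6 to 25.4 in GN and 13.96 to 31.2 in EV+ libraries. They reached 544, 82.0 and 41.0 CPM in EV- replicates 1, 2 and 3. The higher sum in GN than in control libraries thus lay in Cd8a, and which cells its RNA came from was not tested. The B cell marker Cd79b averaged 97.9 CPM in control and 54.9 in GN libraries, and the globin gene Hbb 1.22 and 4.68 CPM. The T cell marker Cd3e was at 0 in 6 libraries, among them all control and GN libraries, and at most 2.09 CPM, in EV- replicate 1. The part of this RNA in any difference between the groups was not tested. Some of the differences that involve EV- libraries, though not all, are also given without EV- replicate 1. In sorted cells sequenced in bulk, fewer cells of a type and less RNA per cell cannot be told apart.

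**Figure D1:**
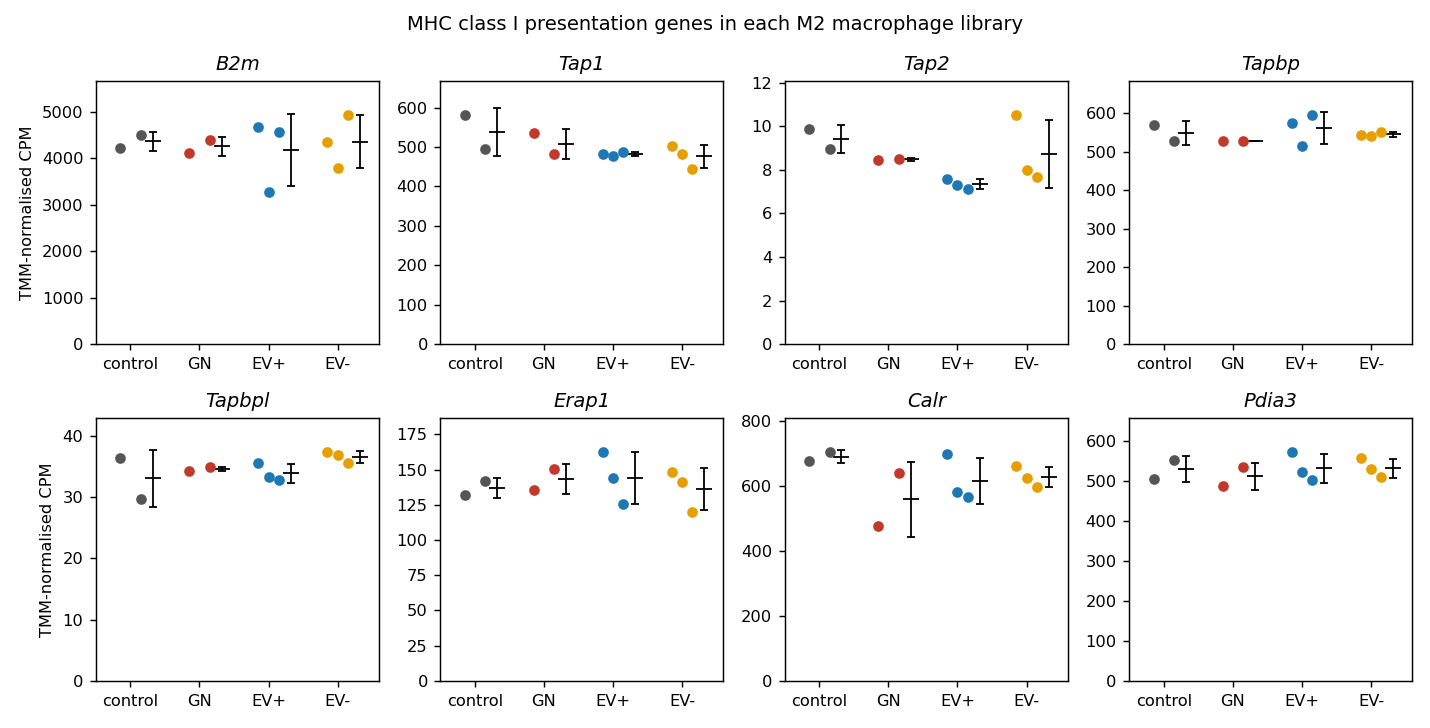
Each panel plots the TMM-normalised CPM (y axis, from 0) of 1 gene in each library (dots) of the control, GN, EV+ and EV- groups (x axis), with the group mean and SD as a bar beside the dots. Calr reached its lowest value, 477 CPM, in GN replicate 1 and B2m its lowest, 3272 CPM, in EV+ replicate 2, while Tapbp stayed between 514 and 595 CPM.

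All 8 measured members were expressed in every library, and none of them passed the test in any comparison. The test was limma on log2(CPM + 1), fitted on all 9003 genes with a false discovery rate (FDR) threshold of 0.1. Among the 4 groups, 0 of 8 members passed it, against 2.57% of all genes. The lowest adjusted p among the members in that test was 0.575, for Calr. At an unadjusted limma p under 0.05, 0 of 8 members and 1076 of all genes passed among the 4 groups. The fits with edgeR's quasi-likelihood test, edgeR's likelihood-ratio test and DESeq2 also called 0 of 8 members. Over the 10 libraries the median of the members' SDs on the log2 scale was 0.12. It was 0.15 for the 7193 genes with a mean of at least 5 CPM and 0.18 for all genes. These sets were not matched to the members in level, and most members lie far above 5 CPM. Tapbp, with an SD of 0.066, and Pdia3, with 0.074, varied least, and Calr, B2m and Tap2, with SDs of 0.17 each, varied most.

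B2m, the light chain of every classical class I molecule, was measured at 4215 and 4499 CPM in control, 4104 and 4397 in GN, 4659, 3272 and 4571 in EV+ and 4352, 3788 and 4918 in EV- macrophages. The groups overlapped, and the lowest libraries were replicates 2 of EV+ and of EV-. Control libraries averaged 4357 ± 201 CPM (SD, n = 2) and GN libraries 4250 ± 207 CPM (n = 2). EV+ libraries averaged 4167 ± 777 CPM and EV- libraries 4353 ± 565 CPM (n = 3 each), and no 2 of these means differed by more than their spread. GN minus control was -0.04 on the log2 scale, with a 95% interval of -0.36 to 0.29.

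Tap1, the transporter subunit, was at 580.2 and 494 CPM in control, 535 and 482 in GN, 482, 477 and 487 in EV+ and 502, 482 and 444 in EV- macrophages. The first control library was the highest of the 10, and the third EV- library the lowest. The highest group mean was that of control (537 ± 61.1), followed by GN (509 ± 37.8), EV+ (482 ± 4.71) and EV- (476 ± 29.4), and no neighbours in this order differed by more than their spread. The difference from control was -0.08 in GN (interval -0.27 to 0.12), -0.15 in EV+ (-0.33 to 0.03) and -0.17 in EV- (-0.35 to 0.01), with limma adjusted p of 0.849, 0.436 and 0.419. Without control replicate 1 the EV+ difference was -0.03 and the EV- difference -0.05. Without control replicate 2 they were -0.27 and -0.29, so the size of both depended on which control library was kept. Without EV- replicate 1 the EV- difference was -0.21.

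Tap2, the other subunit of the transporter, was read from 157 to 256 reads per library. It measured 9.86 and 8.95 CPM in control, 8.44 and 8.51 in GN, 7.58, 7.28 and 7.14 in EV+ and 10.5, 8.002 and 7.67 in EV- macrophages. All 3 EV+ libraries were below all other libraries, and EV- replicate 1 was the highest. The exact Poisson interval of a single library, which covers counting error only, ran for example from 6.08 to 8.33 CPM in EV+ replicate 3 and from 6.63 to 8.81 CPM in EV- replicate 3, so these neighbours could not be told apart at this depth. EV+ minus control was -0.32 (interval -0.70 to 0.06, limma adjusted p = 0.427), on a scale that understates the change of a gene this low.

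Tapbp, tapasin, was at 570.4 and 527 CPM in control, 528 and 528 in GN, 575, 514 and 595 in EV+ and 544, 540 and 551 in EV- macrophages. The ratio of its highest to its lowest library was 1.16, the smallest of the 8 members. The groups overlapped, and EV+ held both the highest and the lowest library. Its relative Tapbpl was at 36.4 and 29.8 CPM in control, 34.3 and 34.9 in GN, 35.6, 33.3 and 32.8 in EV+ and 37.4, 36.8 and 35.6 in EV- macrophages. Its control libraries lay on both sides of most others, and EV- minus control was 0.15 (interval -0.10 to 0.39).

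Erap1, the ER aminopeptidase that trims peptides to length, was at 132 and 142 CPM in control, 136 and 151 in GN, 162, 144 and 126 in EV+ and 148, 141 and 119.8 in EV- macrophages. The third EV+ and the third EV- library were the lowest, and the groups overlapped. The group means ranged from 136 ± 14.9 CPM in EV- to 144 ± 18.4 CPM in EV+ macrophages.

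Calr, the chaperone that holds the folding heavy chain by its sugar, had the largest difference of any member in GN macrophages. It was at 677 and 705 CPM in control, 477 and 641 in GN, 699, 582 and 567 in EV+ and 661, 626 and 597 in EV- macrophages. Both GN libraries were below both control libraries, but they lay far apart from each other, and the EV+ group spanned most of the range. Pdia3, the disulphide isomerase that works with Calr, was at 506 and 552 CPM in control, 487 and 535 in GN, 572, 521 and 501 in EV+ and 557, 528 and 509 in EV- macrophages, and its lowest library was again GN replicate 1.

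In the comparison of GN with control macrophages, which asks what nephritis alone did, 0 of 8 members passed the test, against 1.75% of all genes. The differences ran from -0.32 for Calr to 0.07 for Tapbpl, and 6 of 8 were negative, with a median of -0.05 against -0.00014 for all genes. Calr was the 1 member with an unadjusted limma p under 0.05, as were 10.4% of all genes. Its difference was -0.32 (interval -0.59 to -0.05), with a limma adjusted p of 0.357. Without GN replicate 1 the Calr difference was -0.11 (adjusted p = 0.919), and without GN replicate 2 it was -0.53 (adjusted p = 0.146), so its size was set by 1 library. Calr and Tap2 were the 2 of 8 members whose GN libraries lay below both control libraries, while GN and control did not overlap in 43.9% of all genes. For the other members the intervals reached from -0.55 to 0.34, which leaves room for changes of that size.

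**Figure D2:**
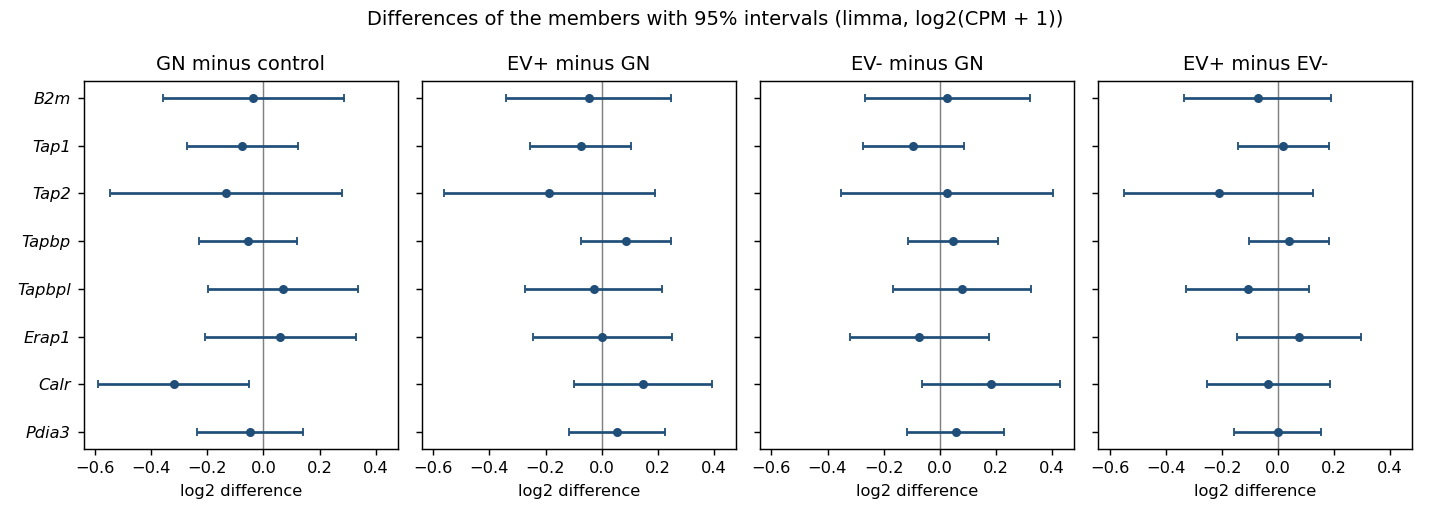
Points are the log2 differences (x axis) of the 8 members (y axis) in 4 comparisons, and bars are 95% intervals from limma on log2(CPM + 1). All intervals cross 0 except that of Calr in GN minus control, -0.59 to -0.05, which did not pass after adjustment.

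Next, macrophages of nephritic rats given ASCs were compared with GN macrophages. In EV+ minus GN, 0 of 8 members passed the test, against 0.122% of all genes, and 0 had an unadjusted limma p under 0.05, against 7.13% of all genes. The differences ran from -0.19 for Tap2 to 0.15 for Calr, and the lowest adjusted p was 0.876. In EV- minus GN, 0 of 8 members passed, against 0.378% of all genes, and 0 had an unadjusted limma p under 0.05, against 7.85% of all genes. The differences ran from -0.09 for Tap1 to 0.18 for Calr, with 6 of 8 above 0. Calr was thus higher than GN on average in both groups, by 0.15 (interval -0.10 to 0.39) and 0.18 (interval -0.06 to 0.43), but both comparisons share the GN libraries, and without GN replicate 1 the differences were -0.06 and -0.03. Without EV- replicate 1 the EV- difference was 0.14. Against control, 0 of 8 members passed in EV+ macrophages, where 3.63% of all genes did, and 0 of 8 in EV- macrophages, where 2.84% of all genes did. No member had an unadjusted limma p under 0.05 in either, where 15% and 13.1% of all genes did.

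EV+ and EV- macrophages were compared to ask what separates DiD-positive from DiD-negative cells of the treated rats. In this comparison 0 of 8 members passed the test, against 0.0222% of all genes, and 0 of 8 had an unadjusted limma p under 0.05, against 411 (4.57%) of all genes. The differences were -0.21 for Tap2 (interval -0.55 to 0.13), -0.11 for Tapbpl (-0.33 to 0.11) and 0.08 for Erap1 (-0.15 to 0.30), and the others lay between -0.07 and 0.04. Tap2 was the 1 member of 8 without overlap, lower in EV+ than in EV- libraries, and 8.91% of all genes did not overlap. Without EV- replicate 1, the library with the most NK and T cell RNA, the Tap2 difference was -0.08, that of Tapbpl -0.09 and that of Erap1 0.14.

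Libraries of the same number deviated together in these groups, with r of 0.122 to 0.295, so they were also compared number by number. A control and an EV+ library of different number reached 0.141, so the pairing is not certain. EV+ minus EV- was -0.42, -0.12 and -0.09 in Tap2 for the numbers 1, 2 and 3, and -0.07, -0.14 and -0.11 in Tapbpl. It was 0.13, 0.03 and 0.07 in Erap1. The other 5 members changed sign between numbers. All 3 differences had one sign in 3 of 8 members (37.5%) and in 27.99% of all genes. With the replicate number as a block and only the 6 EV+ and EV- libraries, 0 of 8 members passed, against 0.544% of all genes, and the lowest adjusted p among the members was 0.798. The blocked intervals narrowed for B2m to -0.19 to 0.04 and for Pdia3 to -0.09 to 0.09, whereas that of Tap2 widened to -0.59 to 0.17.

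**Figure D3:**
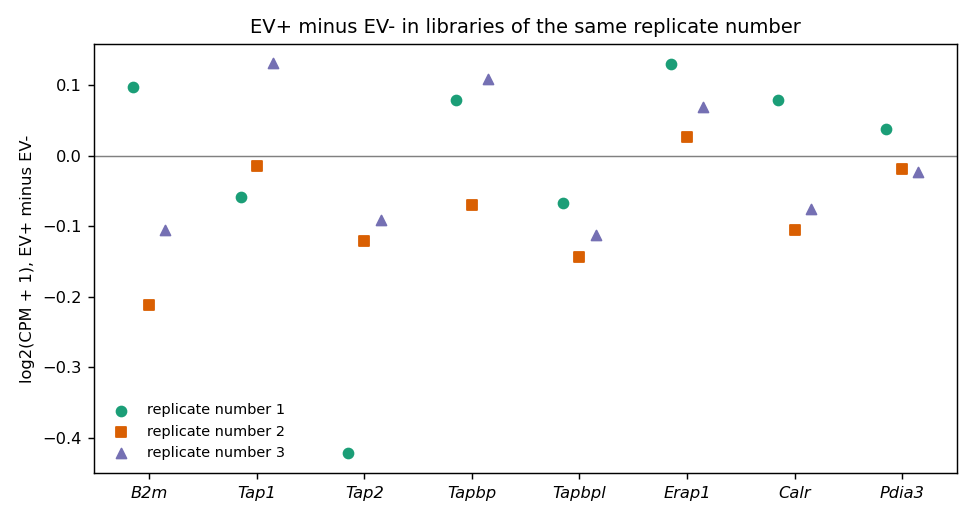
The y axis is log2(CPM + 1) in the EV+ library minus that in the EV- library of the same replicate number, and each symbol is 1 of the 3 numbers for each of the 8 members (x axis). Tap2 and Tapbpl lie below 0 for all 3 numbers and Erap1 above 0, while B2m ranges from -0.21 to 0.10.

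The other genes of the pathway were grouped in 7 lists that hold 80 further genes of the table. In GN minus control, EV+ minus GN, EV- minus GN and EV+ minus EV-, 0 of these 80 genes passed the test, and 11 (13.8%), 7 (8.75%), 5 (6.25%) and 4 (5%) of them had an unadjusted limma p under 0.05, beside 10.4%, 7.13%, 7.85% and 4.57% of all genes. edgeR's quasi-likelihood test also called 0 in these comparisons, while edgeR's likelihood-ratio test and DESeq2 called 1 in EV- minus GN, Ciita. In EV+ minus control 2 of the 80 genes passed the limma test, against 3.63% of all genes. In EV- minus control 0 passed, against 2.84%, and among the 4 groups 1 passed, against 2.57%. At an unadjusted limma p under 0.05 there were 12 (15%), 11 (13.8%) and 8 (10%) of the 80, beside 15%, 13.1% and 12% of all genes. The class I heavy chains (22 of 39 listed genes measured) are the chains that B2m and the loading complex serve. Their median difference from control was -0.08 in GN, -0.14 in EV+ and -0.14 in EV- macrophages, beside medians between -0.00014 and 0.0070 for all genes. Below 0 were 17, 18 and 18 of 22. All of these differences share the same control libraries, and some heavy chains are near-identical copies, so the counts are not independent. Control replicate 1 held the highest value of 9 of the 22 genes (40.9%), against 10.4% of all genes. Control replicate 2 held that of 4 (18.2%), against 14.1%. The part of single control libraries in these medians was not tested.

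RT1-CE4, a heavy chain gene of the RT1-C/E region, passed among the 4 groups (limma adjusted p = 0.0818), though not without either control, either GN or the third EV+ library. It was at 60.7 and 57.0 CPM in control, 49.0 and 44.0 in GN, 40.4, 30.2 and 39.6 in EV+ and 41.6, 40.6 and 48.6 in EV- macrophages. Both control libraries were above all others, and EV+ replicate 2 was the lowest. It fell by 0.68 on the log2 scale in EV+ against control (interval -0.97 to -0.39, limma adjusted p = 0.0164), while EV- minus control was -0.43 (adjusted p = 0.159), GN minus control -0.33 (adjusted p = 0.440) and EV+ minus EV- -0.25 (interval -0.51 to 0.01). EV- minus control also passed with edgeR's likelihood-ratio test (adjusted p = 0.0700), DESeq2 (0.0726) and, in limma, without EV+ replicate 2 (0.0605). It passed too with the replicate block in limma (-0.50, adjusted p = 0.0540). That block also ties control libraries to the others by number, although the number was taken to pair EV+ with EV- only. In the blocked fit of the 6 EV+ and EV- libraries, EV+ minus EV- had an interval of -0.46 to -0.03 and was below 0 for all 3 numbers, with an adjusted p of 0.571. RT1-CE2, named after its values were seen, also fell in EV+ against control, by 0.45 (adjusted p = 0.0806), from 55.2 and 57.0 CPM to 45.0, 36.8 and 41.4 CPM. With 1 control library left out, whichever it was, neither gene passed in EV+ against control. RT1-CE2 was also lost without EV+ replicate 2 (adjusted p = 0.182) or 3 (0.183), without EV- replicate 1 (0.105), without the intensity trend (0.156) and with only the groups compared (0.169). Heavy chain genes of this region are near-identical copies, and reads of WKY/NCrj rats were aligned to rn6, a genome of another strain, so how reads were shared between them is uncertain and its part in these values was not tested. RT1-A1 (2937 to 3533 CPM) and RT1-CE5 (2869 to 3095 CPM), heavy chains also named after their values were seen, did not pass in any comparison.

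The immunoproteasome and its activators (7 of 7 measured), which make the peptides, had a median difference of 0.03 in GN minus control and -0.0020 in EV+ minus EV-. Psmb8, a catalytic subunit whose gene neighbours Tap1, was at 651 and 671 CPM in control, 700.2 and 692 in GN, 752, 638 and 757 in EV+ and 724, 697 and 741 in EV- macrophages. Of the 7 genes, 5 had their lowest value in EV+ replicate 2, as had B2m and Tapbp, 10 of 22 heavy chains and 15.6% of all genes. Psmb9, the catalytic subunit next to Tap1 on the other side, was for example at 403 CPM there and at 427 to 520 CPM in all other libraries.

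The ER folding and quality control list (14 of 16 measured) holds the general chaperones beside which Calr and Pdia3 work. Its median was -0.05 in GN minus control, 0.11 in EV+ minus GN and 0.07 in EV- minus GN. Hspa5 (BiP), the main Hsp70 of the ER, was at 1032 and 946 CPM in control, 720.5 and 889 in GN, 783, 870.1 and 774 in EV+ and 822, 901 and 809 in EV- macrophages. Its control libraries were the highest of the 10, GN minus control was -0.30 (limma adjusted p = 0.255) and EV+ minus control -0.29 (adjusted p = 0.147). GN replicate 1 held the lowest of the 10 values for 7 of the 14 genes and for Calr and Pdia3, as it did for 7.33% of all genes. Hsp90b1, the ER Hsp90, and Canx, the membrane-bound relative of Calr, were among them, with 655 and 466 CPM. P4hb, another disulphide isomerase, was not, with 764 CPM in GN replicate 1 against 715 and 676 CPM in control.

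**Figure D4:**
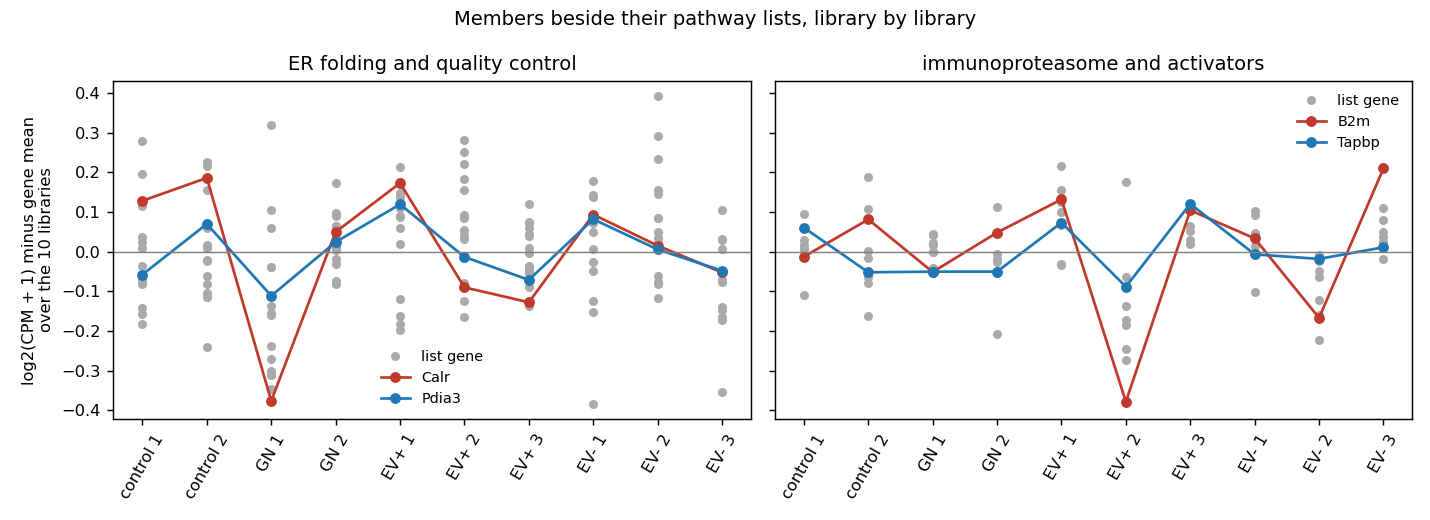
The y axis is log2(CPM + 1) minus the mean of the gene over the 10 libraries (x axis, group and replicate number). Grey points are the 14 ER folding genes (left) or 7 immunoproteasome genes (right). Calr and most ER folding genes dip in GN replicate 1, where Calr was at 477 CPM, and B2m and most immunoproteasome genes dip in EV+ replicate 2, where B2m was at 3272 CPM.

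Of the 15 factors that act on class I promoters, 14 were below 0 in GN minus control, and none passed the test. Their median was -0.11, beside -0.00014 for all genes. All of these differences share the same control and GN libraries, so the signs are not independent. Control replicates 1 and 2 held the highest value of 5 (33.3%) and 4 (26.7%) of the 15, against 10.4% and 14.1% of all genes. GN replicate 2 held the lowest of 5 (33.3%), against 9.08%. The part of single libraries in these signs was not tested. Irf1, an interferon response factor that binds the element shown for B2m, Tap1, Tap2 and Tapbp, was at 845 and 642 CPM in control, 627 and 524 in GN, 517, 628 and 644 in EV+ and 558, 561 and 663 in EV- macrophages. Only the first control library stood apart, the library in which Tap1 was also highest, and Irf1 in GN minus control was -0.36 (interval -0.66 to -0.06, limma adjusted p = 0.354). Ciita, the class II transactivator, named after its values were seen, was at 2.97 and 5.03 CPM in control, 8.91 and 9.94 in GN, 3.28, 6.06 and 8.70 in EV+ and 4.13, 0.561 and 1.52 in EV- macrophages. GN libraries were the highest and all EV- libraries were below them, with EV- minus GN at -1.94 (limma adjusted p = 0.110).

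**Figure D5:**
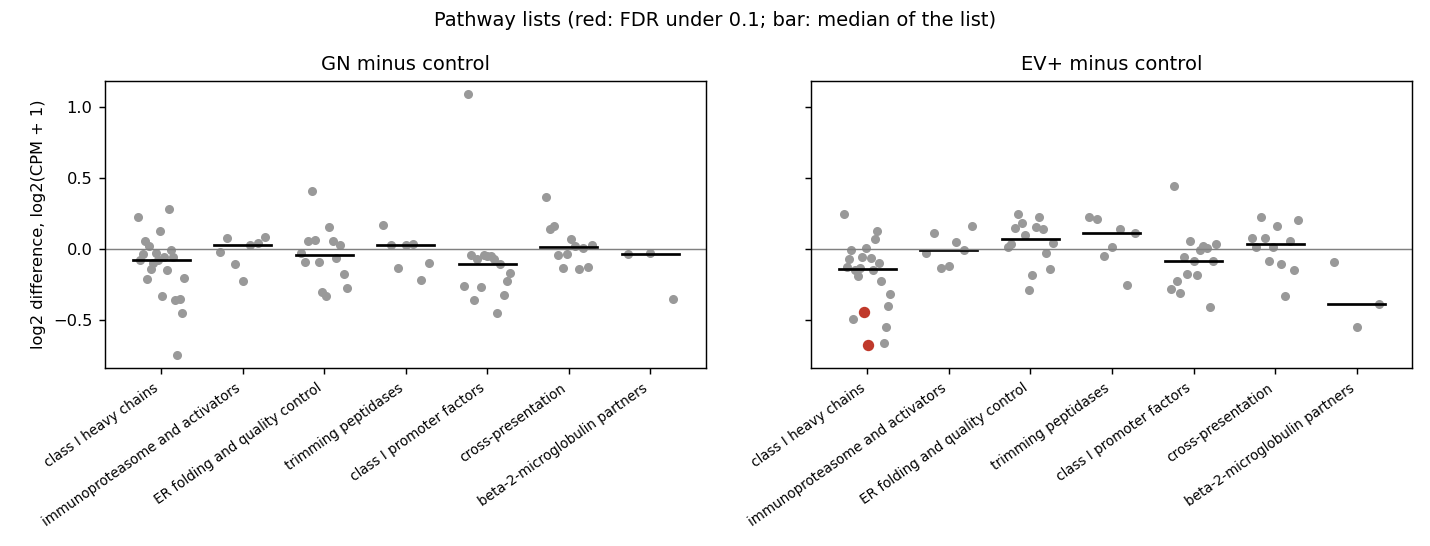
Each point is the log2 difference (y axis, log2(CPM + 1)) of 1 gene in GN minus control (left) or EV+ minus control (right), grouped by pathway list (x axis), with the median of the list as a bar. The 2 red points at right, RT1-CE4 and RT1-CE2, are the genes past an FDR of 0.1, 2 of 80 beside 3.63% of all genes. The highest point at left is Ciita at 1.09.

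The trimming peptidases of the list (7 of 8 measured) and the cross-presentation genes (12 of 13), which bring outside antigen to the class I pathway, had medians of 0.03 and 0.01 in GN minus control and 0.09 and 0.03 in EV+ minus EV-. Lap3, the cytosolic leucine aminopeptidase, was for example 0.21 higher in EV+ than in control macrophages (interval -0.04 to 0.47), and Cybb, the NADPH oxidase subunit of phagosomes, 0.22 higher (interval 0.05 to 0.40, limma adjusted p = 0.220). The partners that share B2m (3 of 4) had a median of -0.39 in EV+ minus control and -0.21 in EV- minus control. Fcgrt, the Fc receptor that spares IgG from breakdown, was at 9.28 and 13.6 CPM in control macrophages. It was at 8.79, 6.65 and 6.78 in EV+ and 9.09, 8.26 and 6.46 in EV- macrophages. Its EV+ minus control was -0.55 (limma adjusted p = 0.221), whereas that of Cd1d1, which presents lipids, was -0.09 (interval -0.25 to 0.07).

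The genes whose pattern over the 10 libraries was most like that of Tap1, by Pearson's r of log2(CPM + 1) among 7193 genes, were Trib1 (r = 0.910), Sntb1 (0.893), Katna1 (0.880), Daxx (0.872) and Smox (0.869). For Calr they were Rab32 (0.908), Abce1 (0.888), Tspan2 (0.872), Trit1 (0.857) and Creg1 (0.853). These are descriptions of the same 10 libraries, picked as the highest of many, and without control replicate 1 the r values of the genes named for Tap1 were 0.674 to 0.807, and without GN replicate 1 those of the genes named for Calr were 0.764 to 0.859.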

How the data were processed

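The genes and lists were chosen with earlier results of these data known. RNA of sorted cells was converted with the SMART-Seq v4 Ultra Low Input kit and sequenced in pairs. The authors aligned reads to rn6 with STAR (2.5.3), counted RefSeq genes with HTSeq (0.6.0), removed genes whose highest CPM was under 1 and applied TMM scaling in edgeR. Whether counting used strand is not given in the sources used here. The deposited values are a normalised signal, TMM-scaled CPM, for 9003 genes, of which 18 had symbols turned into dates and could not be named. Each value was a whole number of reads (100% of values, within 0.1 of a read) times the worth of 1 read, and TMM-scaled CPM recomputed from these reads differed by at most 2.14e-07 of the value.

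Differences and adjusted p-values are from limma (3.58.1) in R (4.3.3) on log2(value + 1), with an intensity trend, all 10 libraries, 6 residual degrees of freedom and Benjamini-Hochberg adjustment over all genes. P-values measure the spread between these libraries. The fit was also run on simulated data, in which libraries were independent and changes were planted in GN only. These data lacked the correlation of EV+ and EV- libraries of one number, so the run does not vouch for that comparison. Recovered reads were tested with edgeR (4.0.16) and DESeq2 (1.42.0) as alternatives, and edgeR's quasi-likelihood test called 147 genes in GN minus control. Named were all measured members, and per list the genes that passed among the 4 groups or in comparisons other than those of EV+ or EV- with control, or otherwise up to 4 genes with the highest mean CPM. Pairing was judged by the correlation of deviations from the group means over all genes. Same-numbered EV+ and EV- libraries gave 0.203, 0.295 and 0.122 (each over 0.1), and same-numbered control and GN libraries 0.088. EV+ and EV- libraries of different number gave -0.229 to -0.013. The replicate number was therefore taken to pair EV+ with EV- only. Libraries of different number in other groups also passed 0.1, with 0.141 for control replicate 1 and EV+ replicate 2. A value over 0.1 thus does not by itself show pairing. The source of this pairing is not given in the labels. Promoters were read from RefSeq tables on GRCr8, a later build than rn6, and no coordinates were converted.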

Additional observations from a re-analysis of the deposited data

How the results depend on the processing

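No member passed the FDR threshold under any alternative: the count stayed 0 in all comparisons with edgeR's quasi-likelihood and likelihood-ratio tests, DESeq2, RLE size factors, a pseudocount of 0.1, a filter of 1 CPM in 2 libraries, no intensity trend, an FDR of 0.05, only the groups compared, the replicate block, and with each library left out. The lowest adjusted p of a member over these was 0.146, for Calr in GN minus control without GN replicate 2. Over the alternatives that kept all libraries of a comparison, all-gene calls ranged from 60 to 294 in GN minus control, 0 to 43 in EV+ minus GN, 6 to 126 in EV- minus GN, 0 to 57 in EV+ minus EV-, 155 to 540 in EV+ minus control, 94 to 474 in EV- minus control and 93 to 616 among the 4 groups. With single libraries left out they ranged, in the same order, from 34 to 214, 0 to 18, 7 to 42, 0 to 5, 114 to 390, 95 to 388 and 97 to 266. The fit with the block on the 6 EV+ and EV- libraries was chosen after seeing the data, and the block changed no call of a member.

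The number of pathway genes called was less stable. In GN minus control it went from 0 to 2 with the replicate block and with only the groups compared. In EV- minus GN it was 1 with the likelihood-ratio test and DESeq2 and 0 to 1 with single libraries left out. The 1 came without EV+ replicate 1 and without EV- replicate 1. In EV+ minus control it went from 2 to 1 without the trend, with only the groups compared and at an FDR of 0.05, to 4 with the block, and ranged from 0 to 4 with single libraries left out. In EV- minus control it was 1 with the likelihood-ratio test and DESeq2, 3 with the block and 0 to 1 with single libraries left out. Among the 4 groups it went from 1 to 3 with the likelihood-ratio test, DESeq2 and the block, to 0 without the trend and at an FDR of 0.05, and ranged from 0 to 2 with single libraries left out. The cause was not tested. The block in these counts spans all 4 groups, although the replicate number was taken to pair EV+ with EV- only.

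Signs of small differences turned when single libraries were left out. In GN minus control the log2 difference then ranged from -0.086 to 0.014 for B2m, -0.19 to 0.040 for Tap1, -0.11 to 0.0017 for Tapbp, -0.070 to 0.21 for Tapbpl, -0.014 to 0.14 for Erap1 and -0.12 to 0.018 for Pdia3. In EV+ minus EV- it ranged from -0.17 to 0.092 for B2m, -0.030 to 0.059 for Tap1, -0.0030 to 0.10 for Tapbp, -0.015 to 0.17 for Erap1, -0.13 to 0.023 for Calr and -0.055 to 0.040 for Pdia3, which was 0.00035 with DESeq2. For Calr it ranged from -0.064 to 0.36 in EV+ minus GN and from -0.031 to 0.39 in EV- minus GN. Calr in GN minus control (-0.53 to -0.11), Tap2 in GN minus control (-0.20 to -0.07) and in EV+ minus EV- (-0.29 to -0.08) kept their sign. Groups of 2 or 3 libraries and, for Tap2, 157 to 256 reads limit the precision.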
